A study of Mus musculus with 12 samples.

Results

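Melanocyte and strial intermediate cell genes were followed along the mouse cochlea. The group held 10 genes of 19505 gene names on the arrays, *Tyr*, *Tyrp1*, *Dct*, *Mlana*, *Mitf*, *Kit*, *Ednrb*, *Slc45a2*, *Oca2* and *Gpnmb*, chosen by name, and their level was given by 106 probes. Cochleae of male C57BL/6 mice aged 6 weeks were dissected into apical, middle and basal turns, and 4 samples of each turn were hybridized to 1-color exon arrays, 12 in all, from 25 ng of total RNA each. The labels name no treatment or engineered allele, and the turn is the only factor they vary; the design names 4 mice. The tissue held the organ of Corti and the lateral wall (stria, ligament and prominence), to which the study's methods add the spiral ganglion neurons.

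Intermediate cells are melanocytes of neural crest origin that sit between the marginal and basal cells of the stria vascularis, the epithelium that secretes endolymph. They carry the potassium channel Kcnj10, which is needed for the endocochlear potential, and they make melanin in pigmented strains such as C57BL/6. The transcription factor Mitf directs the lineage, the receptors Kit and Ednrb guide its migration and survival, and Tyr, Tyrp1 and Dct are the enzymes of melanin synthesis inside the melanosome.

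Each turn was run on a slide of its own, so slide and turn cannot be told apart, and the p-values measure the spread between the 4 samples of a turn, which may be partly technical. The 75th percentile of signal before scaling ran from 534 to 721.6, and 77.4% to 81.4% of spots were well above background. The median SD of a gene within a turn was 0.106 in apical samples, 0.126 in middle samples and 0.115 in basal samples on the log2 scale. In the apex 1 sample stood apart, replicate 4, where the highest apical signals of the bone and marrow genes *Ibsp* (57.3 to 1840 over the apical samples) and *Mpo* (55.5 to 380) lay. In bulk tissue, fewer cells of a type and less RNA per cell cannot be told apart.

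Of the 10 genes, 8 were lower in the apex than in the base (limma, Benjamini-Hochberg adjusted p under 0.05), against 21.6% of all genes tested (39.2% in either direction). *Oca2* was higher in the apex by the same rule, against 17.6% of all genes, and *Tyrp1* did not pass. The median log2 difference of the 10 genes was -0.75, and that of all genes was -0.04. Scaling the arrays to their median gave 9 lower and 0 higher, with medians of -0.87 for the 10 genes and -0.15 for all genes. Scaling to the spike-in probes gave 10 lower and 0 higher, with medians of -1.24 and -0.52, and *Oca2* was then called lower in the apex (-0.25, adjusted p = 0.03). For 8 genes the 4 apical samples lay below all 4 basal samples, a pattern that 21.4% of all genes showed. The apical samples lay below all middle samples for 5 (13.5% of all genes), and the middle samples below all basal samples for 4 (11.6%). Under the study's rule of a 2-fold difference between turns together with the F test, 3 genes passed, *Kit*, *Mlana* and *Slc45a2*, against 4.69% of all genes. That count was 1 without apex replicate 1, without base replicate 2 or without base replicate 4.

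**Figure D1:**
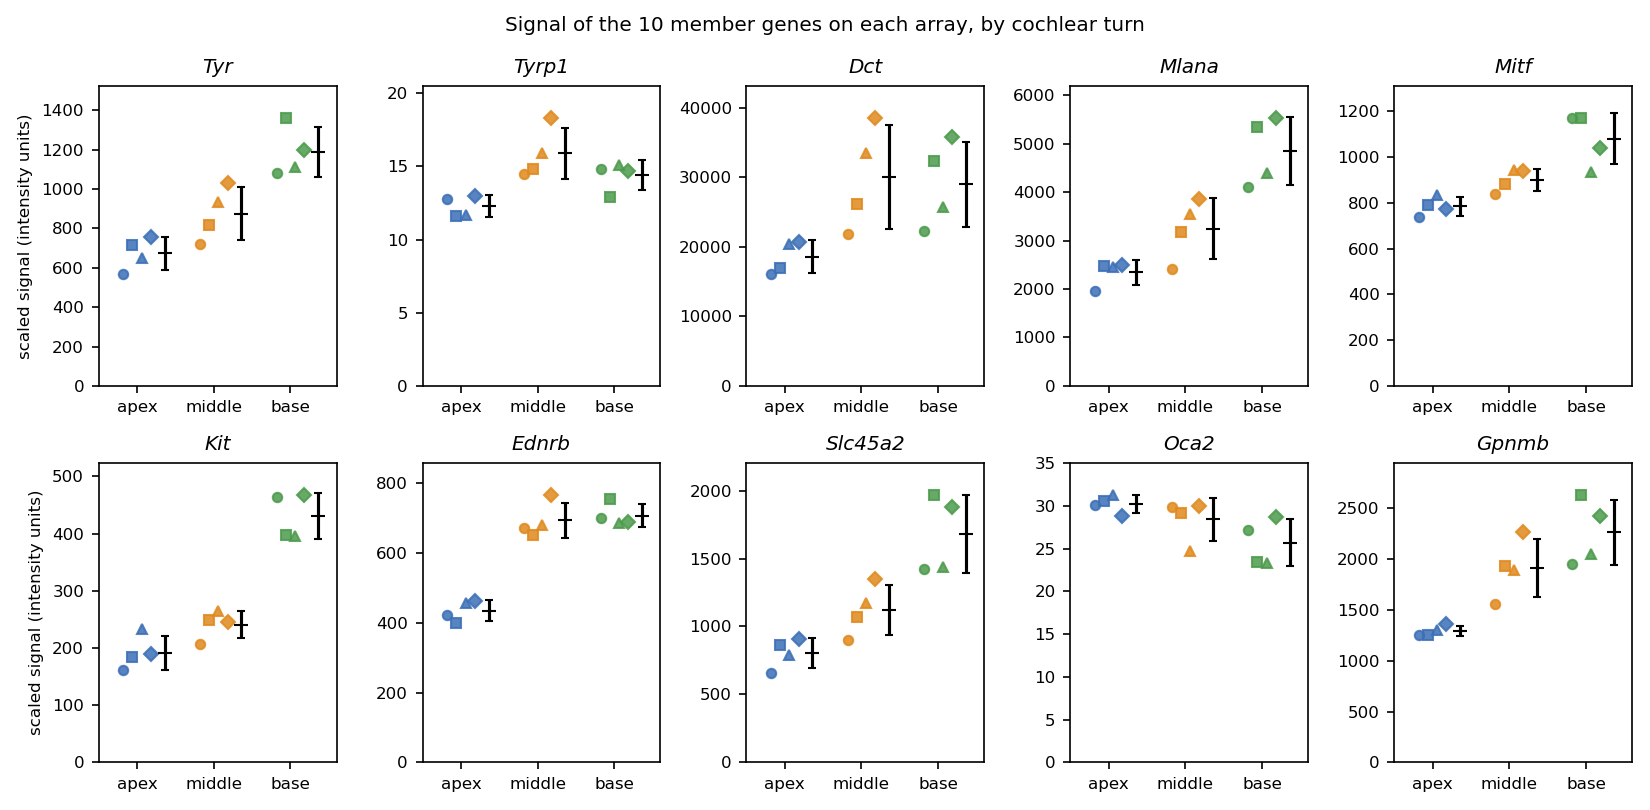
Signal of each of the 10 genes on each array (scaled intensity units, linear axes from 0), by turn. Circles, squares, triangles and diamonds are samples 1 to 4 of a turn, and the black mark with its bar is the mean ± SD of the 4 samples. For *Kit*, the 4 basal samples (395 to 468) lie above all apical and middle samples, and for *Ednrb* the 4 apical samples (400 to 463) lie below all middle and basal samples.

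The melanin enzymes were measured first. Tyrosinase, *Tyr*, catalyzes the first steps from tyrosine to melanin. Its signal was 567, 717, 652 and 757 in the 4 apical samples, 722, 817, 933 and 1029 in the middle samples and 1080, 1362, 1110 and 1201 in the basal samples. No apical or middle sample reached the lowest basal sample, while apex and middle overlapped. The means were 673 ± 83.1 in apical samples, 875 ± 134 in middle samples and 1190 ± 127 in basal samples (SD, n = 4). The base exceeded the apex 1.77-fold (log2 difference -0.82, SE 0.125, adjusted p = 4.2e-04) and the middle turn 1.36-fold (adjusted p = 0.026). Apex and middle differed by -0.37 with an adjusted p of 0.074 (95% interval -0.65 to -0.1). All 6 *Tyr* probes, which span chr7:94576265-94641132 on the minus strand of mm9, were lower in the apex, by 1.54- to 1.9-fold.

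Dopachrome tautomerase, *Dct*, converts dopachrome on the way to eumelanin and is an early marker of the lineage. Its signal was 16056, 17047, 20449 and 20668 in apical samples, 21788, 26143, 33538 and 38526 in middle samples and 22305, 32285, 25723 and 35838 in basal samples. The highest apical sample lay below the lowest sample of either other turn, and the middle and basal samples covered the same range. The apex was lower than the base (log2 difference -0.63, SE 0.193, adjusted p = 0.022) and lower than the middle turn (-0.67, SE 0.193, adjusted p = 0.047). The middle turn and the base differed by 0.04, with a 95% interval of -0.39 to 0.46. *Dct* had the widest spread of the 8 genes that fell, with an SD of 0.367 on the log2 scale in the middle turn, and its apical call was lost without apex replicate 1 (-0.56), apex replicate 2 (-0.59), base replicate 2 (-0.57) or base replicate 4 (-0.52). The call against the middle turn was lost in 9 of 12 fits that left out an array (all but those without middle replicate 1, base replicate 1 or base replicate 4; adjusted p = 0.056 to 0.12), and with the arrays of the 2 turns alone (adjusted p = 0.059).

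Tyrosinase-related protein 1, *Tyrp1*, acts late in eumelanin synthesis and stabilizes tyrosinase. Only 2 of its 9 probes were well above background on every array, and the other 7 were well above background on none. The probe at chr4:80492590-80492649 gave mean signals of 116, 129 and 133 from apex to base (log2 apex minus base -0.19, SE 0.0709, adjusted p = 0.056), and the first probe gave 64.5, 58.7 and 54.5 (0.3, SE 0.234, adjusted p = 0.36). Neither probe differed between apex and base by the test. Averaged over all 9 probes, the signal was 12.8, 11.6, 11.7 and 13 in apical samples, 14.5, 14.8, 15.9 and 18.3 in middle samples and 14.8, 12.9, 15.1 and 14.7 in basal samples, so that apex and base overlapped. The difference over all 9 probes was -0.23 (adjusted p = 0.051) for apex minus base and -0.36 (adjusted p = 0.019) for apex minus middle, but with the 2 measured probes alone these differences were 0.06 and 0.00. The difference over 9 probes was thus carried by spots without measurable signal, and no direction is given for *Tyrp1*.

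The probes below are shown for the enzymes because they mark what was measured: each is the brightest probe of its gene outside the first and the last 2, 60 bases, 5′ to 3′ as listed in the array design. The second *Tyrp1* sequence is the neighboring probe that was well above background on no array. The *Tyrp1* probes with signal on all arrays had a GC content of 45% and 53.3%, and those with none had 35% to 45%.
Tyr, chr7:94632414-94632473, minus strand: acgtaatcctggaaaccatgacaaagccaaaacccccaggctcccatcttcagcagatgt
Dct, chr14:118438832-118438891, minus strand: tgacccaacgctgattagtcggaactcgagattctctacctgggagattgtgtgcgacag
Tyrp1, chr4:80492590-80492649, plus strand: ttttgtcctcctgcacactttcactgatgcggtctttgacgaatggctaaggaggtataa
Tyrp1 without signal, chr4:80490803-80490862, plus strand: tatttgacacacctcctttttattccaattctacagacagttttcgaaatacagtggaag

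The longest word shared by the promoter windows of the 3 enzyme genes was GTCATGTGCT. It is the M-box, known from pigment genes as a binding sequence of the Mitf family, and it contains the shorter E-box CATGTG. Among RefSeq promoter windows (GRCm38.p6, 250 bases before to 50 after each start), 11 windows belonged to 8 of the 10 genes. The M-box was present, on either strand, in 3 of the 11, those of *Tyr*, *Tyrp1* and *Dct*, and in 0.186% of all 32851 windows. As the word was read from the windows of these 3 genes, the counts are a description. CATGTG or its complement CACATG was present in 4 of the 11 (the same 3 and *Oca2*) and in 14.2% of all windows. The first base of the M-box stood at -23 in *Tyr*, -48 in *Tyrp1* and -152 in *Dct* relative to the start site. The 250 bases upstream are given with the M-box in capitals, as a description of the sequence and not of binding.
Tyr, chr7:87493513-87493762, minus strand: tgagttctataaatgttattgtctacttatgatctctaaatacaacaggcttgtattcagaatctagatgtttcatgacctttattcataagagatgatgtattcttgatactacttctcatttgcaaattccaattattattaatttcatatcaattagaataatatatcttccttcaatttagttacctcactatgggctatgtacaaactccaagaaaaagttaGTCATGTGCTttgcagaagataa
Tyrp1, chr4:80833963-80834212, plus strand: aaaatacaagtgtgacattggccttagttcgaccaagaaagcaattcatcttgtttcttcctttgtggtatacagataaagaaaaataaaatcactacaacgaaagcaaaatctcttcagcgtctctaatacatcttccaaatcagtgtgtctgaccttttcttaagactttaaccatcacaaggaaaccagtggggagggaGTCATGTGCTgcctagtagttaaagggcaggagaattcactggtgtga
Dct, chr14:118052247-118052496, minus strand: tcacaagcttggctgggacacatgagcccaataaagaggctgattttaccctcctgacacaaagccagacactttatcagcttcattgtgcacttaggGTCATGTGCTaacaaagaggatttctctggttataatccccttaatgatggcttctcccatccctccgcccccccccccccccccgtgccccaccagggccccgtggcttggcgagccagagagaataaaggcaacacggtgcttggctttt

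Melanosome proteins and transporters came next. *Mlana* encodes a small melanosome membrane protein needed for melanosome maturation. It gave 1959, 2475, 2452 and 2502 in apical samples, 2411, 3179, 3556 and 3859 in middle samples and 4110, 5351, 4391 and 5529 in basal samples. Every basal sample lay above every sample of the other turns. The base exceeded the apex 2.06-fold (log2 difference -1.04, SE 0.152, adjusted p = 3.3e-04) and the middle turn 1.5-fold (adjusted p = 0.019), and apex and middle differed by -0.46 (adjusted p = 0.074). All 4 probes fell in the apex, by 2.03- to 2.08-fold.

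*Slc45a2* encodes a transporter that sets the pH of the melanosome. Its signals were 659, 861, 793 and 911 in apical samples, 899, 1075, 1169 and 1345 in middle samples and 1422, 1967, 1442 and 1877 in basal samples. As for *Mlana*, the basal samples lay above all others, and apex and middle overlapped. The base exceeded the apex 2.07-fold (log2 difference -1.05, SE 0.152, adjusted p = 3.1e-04) and the middle turn 1.49-fold (adjusted p = 0.02). All 7 probes were lower in the apex, between 1.97- and 2.15-fold.

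*Gpnmb*, a melanosome glycoprotein that macrophages also make, gave 1250, 1252, 1299 and 1362 in apical samples, 1560, 1925, 1892 and 2257 in middle samples and 1953, 2632, 2045 and 2423 in basal samples. The apical samples lay within a narrow band below all others. The apex was lower than the base 1.74-fold (log2 difference -0.8, SE 0.117, adjusted p = 3.4e-04) and lower than the middle turn 1.47-fold (adjusted p = 0.015). Middle and base differed by -0.25, with a 95% interval of -0.51 to 0.01.

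*Oca2*, a melanosome membrane protein linked to chloride transport, was the gene called higher in the apex. Of its 21 probes, 6 were well above background on all arrays and 11 on none. Averaged over its probes, the signal was 30.1, 30.5, 31.3 and 28.8 in apical samples, 29.9, 29.2, 24.7 and 30 in middle samples and 27.2, 23.4, 23.3 and 28.7 in basal samples, with the apical samples just above the basal ones. The mean was 30.2 ± 1.06 in apical samples, 28.4 ± 2.51 in middle samples and 25.7 ± 2.74 in basal samples (SD, n = 4), a difference of 0.24 (SE 0.0847, adjusted p = 0.043). The brightest probe, at chr7:63678683-63678742, gave 1440, 1470 and 1660 from apex to base (-0.21, SE 0.0908, adjusted p = 0.094), and the next brightest gave 658, 700 and 683 (-0.06, adjusted p = 0.65). The last probe, read as 28, 13.2 and 6.93, was well above background on no array. With the 6 measured probes alone the difference was 0.07, with the log2 of the mean linear signal it was -0.09 and with the spike-in scaling -0.25, while the median of probes gave 0.88. The call was also lost without apex replicate 1, 2 or 3, middle replicate 2 or 4, or base replicate 2 or 3.

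A probe of each of the 3 melanosome genes that fell is printed because every probe of these genes was called lower in the apex; they were chosen by the same brightness rule.
Mlana, chr19:29779147-29779206, plus strand: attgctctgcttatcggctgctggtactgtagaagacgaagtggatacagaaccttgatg
Slc45a2, chr15:10953163-10953222, plus strand: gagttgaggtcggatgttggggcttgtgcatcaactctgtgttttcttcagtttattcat
Gpnmb, chr6:49001057-49001116, plus strand: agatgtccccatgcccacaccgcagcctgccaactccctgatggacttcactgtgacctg

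The receptors and the transcription factor of the lineage followed. *Kit*, the receptor tyrosine kinase for stem cell factor, had the largest apex to base difference of the 10 genes. It gave 162, 184, 233 and 189 in apical samples, 207, 249, 264 and 246 in middle samples and 463, 398, 395 and 468 in basal samples. The base stood above every other sample, while apex and middle overlapped. The base exceeded the apex 2.25-fold (log2 difference -1.17, SE 0.115, adjusted p = 2.5e-05) and the middle turn 1.79-fold (-0.84, adjusted p = 8.0e-04), and apex and middle differed by -0.34 (adjusted p = 0.08).

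*Ednrb*, the endothelin receptor that melanocyte precursors need, had its apical samples apart from both other turns. Its signal was 421, 400, 458 and 463 in apical samples, 670, 652, 681 and 767 in middle samples and 701, 754, 685 and 688 in basal samples. The highest apical sample was 463, the lowest middle sample 652, and the middle and basal samples shared a range. The apex was lower than the base 1.63-fold (log2 difference -0.7, SE 0.0677, adjusted p = 2.2e-05) and lower than the middle turn 1.59-fold (-0.67, adjusted p = 3.6e-04). Middle and base differed by -0.03, with a 95% interval of -0.18 to 0.12.

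*Mitf* gave 738, 791, 836 and 773 in apical samples, 838, 881, 943 and 937 in middle samples and 1168, 1167, 936 and 1044 in basal samples. It had the smallest difference of the 8 genes that fell, and its middle and basal samples overlapped. The base exceeded the apex 1.37-fold (log2 difference -0.45, SE 0.0776, adjusted p = 8.7e-04) and the middle turn 1.2-fold (adjusted p = 0.037), and apex and middle differed by -0.2 (adjusted p = 0.11). *Mitf* has alternative first exons, of which melanocytes use the M exon, the closest to the shared exons. The first exon probe closest to the shared exons, which the files assign to 1 of 3 transcripts, at chr6:97941811-97941870, gave 113, 124 and 134 from apex to base (-0.25, SE 0.173, adjusted p = 0.31). Of the probes further upstream, that of an exon of 1 other transcript gave -0.45 (adjusted p = 0.0024), and that of an exon in both other transcripts gave -0.4 (adjusted p = 0.0037). Relative to the other *Mitf* probes, the first exon probe closest to the shared exons did not differ between turns by the F test (adjusted p = 0.51). Its relative difference was 0.23 (SE 0.138). Taking this probe for the M exon is an inference from its position and its transcript.

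Probes of the 3 regulators, chosen by the same rule, are printed to show what was measured.
Kit, chr5:76005517-76005576, plus strand: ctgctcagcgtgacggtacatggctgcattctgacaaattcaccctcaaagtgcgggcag
Ednrb, chr14:104220870-104220929, minus strand: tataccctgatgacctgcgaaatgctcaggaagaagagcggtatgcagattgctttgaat
Mitf, chr6:97953939-97953998, plus strand: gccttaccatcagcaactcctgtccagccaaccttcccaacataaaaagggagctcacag

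**Figure D2:**
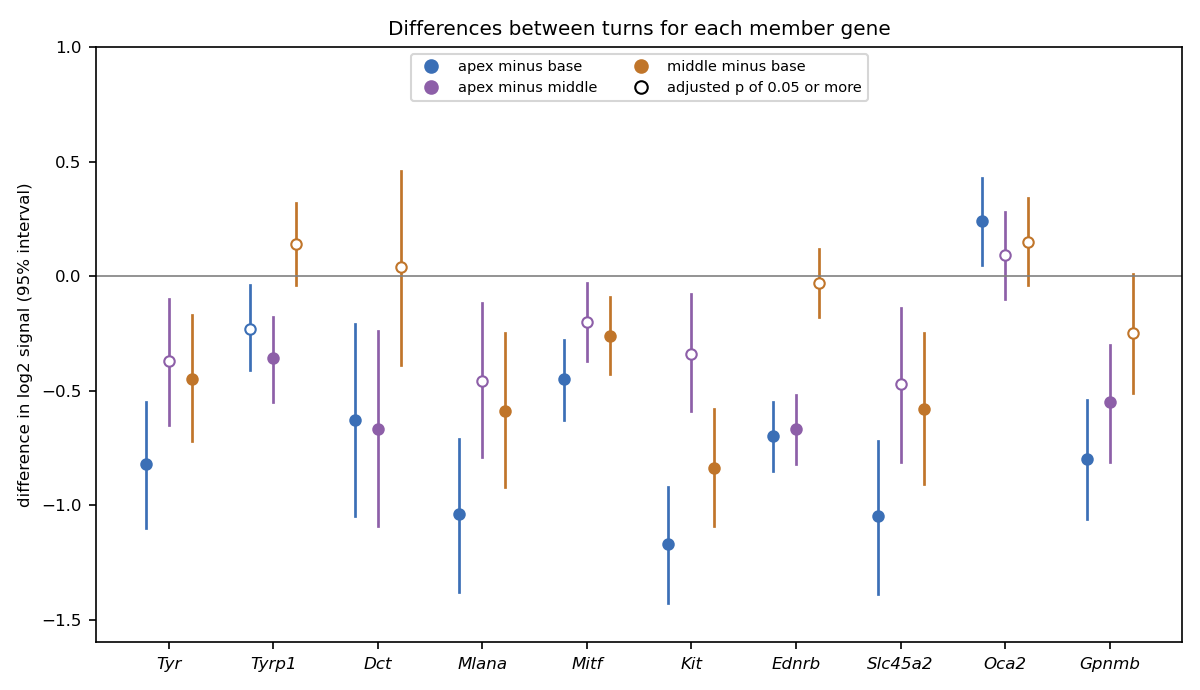
Difference in log2 signal between turns for each gene, with its 95% interval from limma. Filled points have an adjusted p under 0.05. *Ednrb* lies at -0.67 for apex minus middle and -0.03 for middle minus base, and *Kit* at -0.34 and -0.84.

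The neighboring turns were then compared. Between apex and middle, 4 genes were lower in the apex (*Tyrp1*, *Dct*, *Ednrb* and *Gpnmb*), against 7.61% of all genes, and between middle and base 5 were lower in the middle turn (*Tyr*, *Mlana*, *Mitf*, *Kit* and *Slc45a2*), against 9.23%. None was higher, where 4.42% and 11.6% of all genes were. *Tyrp1* is in the first count through probes without measurable signal. The counts depended on single arrays: the apex to middle count was 2 without apex replicate 2 and 7 without middle replicate 1, and the middle to base count was 1 without base replicate 2 or base replicate 4, 2 without middle replicate 1 and 3 without middle replicate 2. A direct test of the 2 steps, chosen after the values were seen, compared the rise from apex to middle with the rise from middle to base. It called *Ednrb*, where the first rise was larger by 0.64 (SE 0.117, adjusted p = 0.022), and no other of the 10, against 2.01% of all genes. For *Kit* the difference of the rises was -0.5 (SE 0.199, adjusted p = 0.19), and for *Dct* it was 0.7 (SE 0.334, adjusted p = 0.24), and neither passed.

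Probe by probe, 76 of the 106 probes were lower in the apex than in the base, against 16.4% of all probes tested. The 5 that were higher, against 18.0% of all probes, all belonged to *Oca2*, and 25 passed in neither direction. Of these *Oca2* probes called higher, the 9th, 20th and 21st in order were well above background on no array. Every probe of *Tyr*, *Mlana*, *Kit*, *Ednrb*, *Slc45a2* and *Gpnmb* was called lower, as were 7 of 8 for *Dct* and 11 of 12 for *Mitf*. The 2 *Tyrp1* probes called lower were well above background on no array. Probes of a gene share its RNA and are not independent measurements of the turns.

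**Figure D3:**
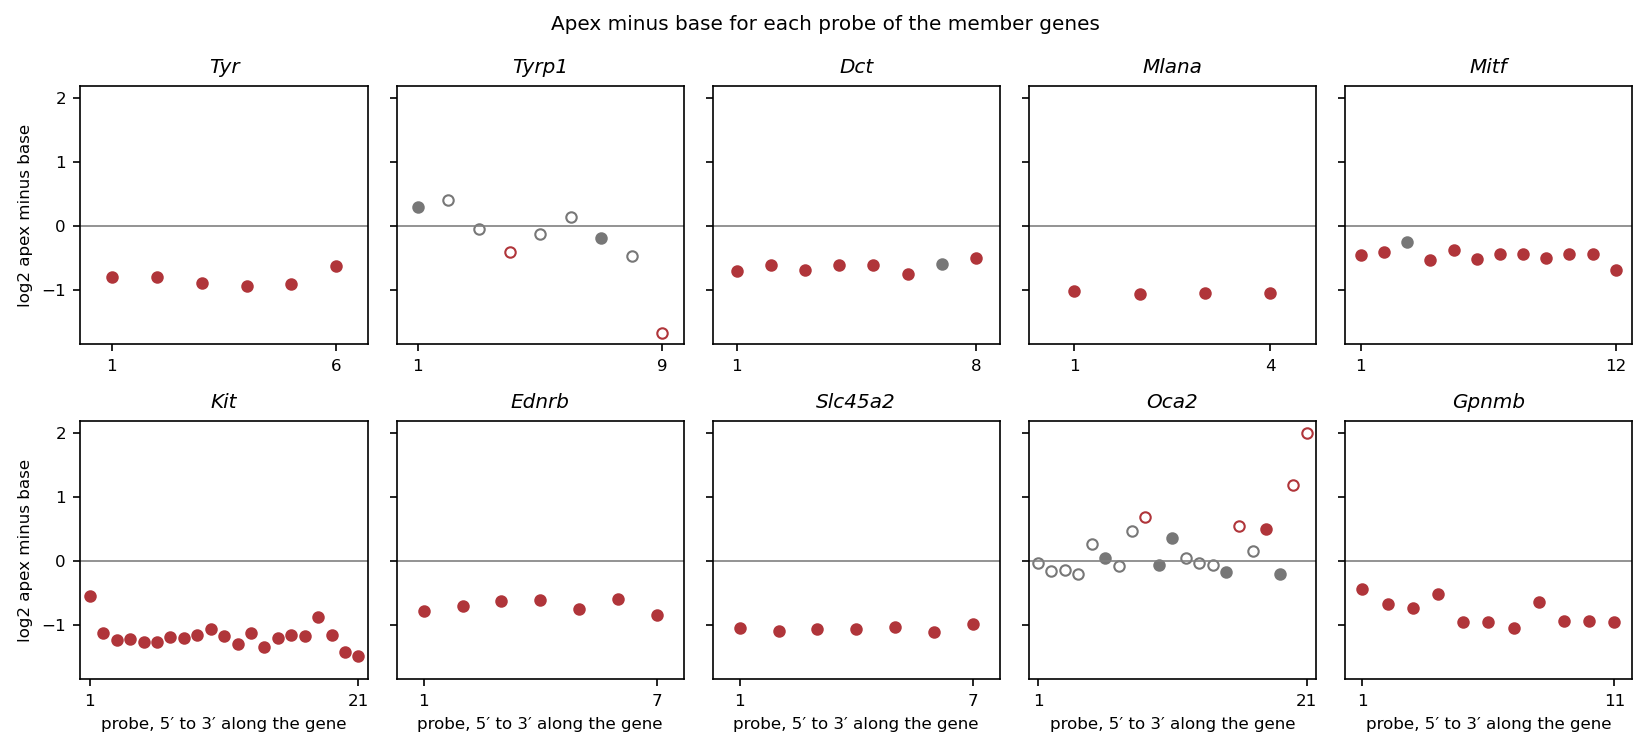
Log2 apex minus base of each probe, in 5′ to 3′ order along each gene. Red probes have an adjusted p under 0.05, gray ones do not, and open circles were not well above background on all 12 arrays. The first *Kit* probe lies at -0.54 and the last at -1.49, without a steady change between them (the second is at -1.12 and the 18th at -0.87). The open circles are found in *Tyrp1* and *Oca2*.

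Within *Kit*, 3 of 21 probes passed the test relative to the gene's other probes. Its first exon probe fell by 0.54 and its last by 1.49, with signals of 577, 633 and 832 and of 1180, 1770 and 3300 from apex to base. The GC content was 70% in the first probe and 38.3% in the last. Relative to the gene's other probes, the first was higher in the apex by 0.67 (SE 0.0677, F test adjusted p = 0.0013), the probe 18th in order by 0.32 (SE 0.0509, adjusted p = 0.015), and the last was lower (-0.33, SE 0.0621, adjusted p = 0.023). *Gpnmb* also had its smallest difference in its first probe, -0.44 against up to -1.04 elsewhere (relative difference 0.39, SE 0.0829, adjusted p = 0.044). The other 4 probes that passed the relative test lay in *Tyrp1* (1) and *Oca2* (3) and were well above background on no array. In all 8 of the 106 member probes passed, a share close to the 6.29% of all probes tested. Leaving out apex replicate 2, base replicate 2 or base replicate 4 gave 4, 3 and 5.

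Samples of a turn also differed from each other in a shared way. The 6 genes found mainly in pigment cells (*Tyr*, *Tyrp1*, *Dct*, *Mlana*, *Slc45a2* and *Oca2*) were averaged after subtracting each turn's mean. Sample 1 was the lowest of its turn, at -0.15 (apex), -0.24 (middle) and -0.13 (base), and sample 4 the highest, at 0.11, 0.25 and 0.16. Over the 12 arrays, the deviations of *Tyr* and *Slc45a2* correlated at r = 0.95, as did those of *Mlana* and *Slc45a2*, and those of *Mlana* and *Dct* at 0.93. *Gpnmb* followed at 0.82 to 0.89 with *Tyr*, *Dct*, *Mlana* and *Slc45a2*. The receptors and *Mitf* followed less closely, with r to the pigment mean of 0.467 for *Kit*, 0.436 for *Mitf* and 0.589 for *Ednrb*. *Tyrp1* gave 0.391 and *Oca2* 0.0015, although both are part of that mean. Of their probes, 7 of 9 and 11 of 21 were well above background on no array. The r values are descriptions over 12 arrays that share 3 turns and 3 slides. The design names 4 mice, so the 12 arrays are not 12 independent animals. *Tyr*, *Dct*, *Mlana* and *Slc45a2* are themselves part of the pigment mean. The pigment mean gave r = 0.233 with the share of spots well above background and 0.304 with the 75th percentile before scaling.

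**Figure D4:**
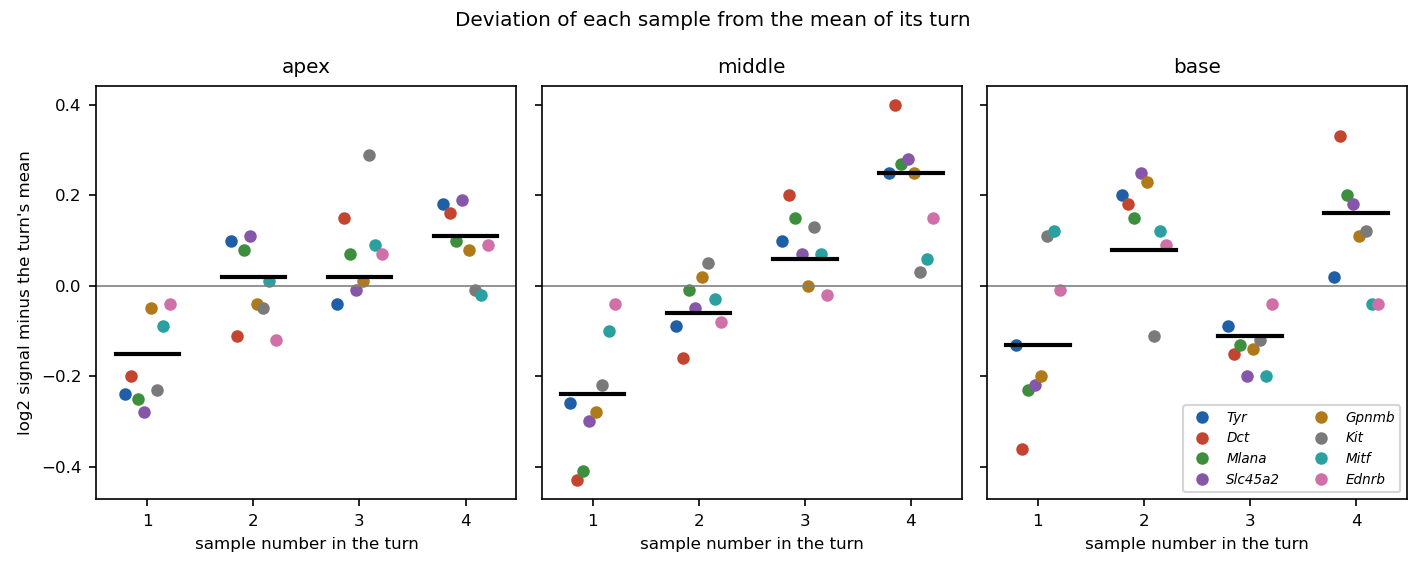
Log2 signal of 8 genes in each sample minus the mean of its turn (points, offset sideways for legibility), and the mean of the 6 pigment cell genes (black bars). The bar of sample 1 is the lowest of each turn (-0.15, -0.24 and -0.13) and that of sample 4 the highest (0.11, 0.25 and 0.16); the sample numbers carry no order.

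By the same measure, the 8 other genes closest to the pigment mean were *Prpf6* (r = 0.975), *Sil1* (0.971), *Clu* (0.971), *Slc29a1* (0.971), *Cldn11* (0.97), *Phldb3* (0.968), *Prkag1* (0.967) and *Il18* (0.966). Of 15998 genes compared, 267 (1.67%) reached an r of 0.9. An r of 0.5 was reached by 4266 of these genes, and 2099 lay at -0.5 or lower. The 8 names depended on single arrays and on these 2 settings: 1 to 6 of them were among the closest 8 when an array was left out (1 without middle replicate 2), 2 with quantile normalization and 1 with normexp. Claudin 11, *Cldn11*, forms the tight junctions of strial basal cells, and *Slc2a1*, the glucose transporter of the same layer, gave 0.936. Over all 12 strial genes of the list described further on, r ran from 0.0919 for *Esrrb* to 0.97 for *Cldn11*, with *Tjp1* at 0.461 and *Kcnj10* at 0.671. *Slc2a1* and *Esrrb* were named after their values were seen.

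Other melanosome genes from a list of 8 were read beside the members. In the apex 5 were lower than in the base, 0 were higher and 3 passed in neither direction, with a median log2 difference of -0.53. Of all genes, 21.6% were lower in the apex and 17.6% higher, with a median of -0.04. *Pmel*, which builds the fibrils on which melanin is laid down, gave mean signals of 137, 313 and 257 from apex to base. Its apex was lower than the base (-0.9, SE 0.217, adjusted p = 0.0066) and lower than the middle turn (-1.17, adjusted p = 0.0085). *Trpm1*, a cation channel of melanocytes, fell by 0.98 (adjusted p = 1.3e-04), *Slc24a5*, a melanosomal cation exchanger, fell by 0.74 (adjusted p = 6.4e-04), and *Cd63*, a tetraspanin of melanosomes and of endosomes in most cells, fell by 0.42 (adjusted p = 8.3e-04). The fifth, named after its value was seen, was *Gpr143*, a melanosome receptor (-0.65, adjusted p = 0.012).

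Genes of melanosome transport, which most cells also use for lysosomes and related organelles, were also read. Of 17 measured, 6 were lower in the apex, 2 were higher and 9 passed in neither direction. Their median was -0.09, beside -0.04 for all genes, of which 21.6% were lower and 17.6% higher. *Dtnbp1* (-0.32, adjusted p = 7.3e-04), *Bloc1s3* (-0.48, adjusted p = 8.7e-04), *Bloc1s1* (-0.38, adjusted p = 0.0018) and *Hps6* (-0.3, adjusted p = 0.0019), subunits of the complexes that route cargo to melanosomes, were lower. The 2 that were higher, named after their values were seen, were *Myo5a*, the motor that carries melanosomes along actin (0.58, adjusted p = 0.0076), and *Lyst* (0.36, adjusted p = 0.0052).

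Ligands and transcription factors of the lineage came next. Of 12 measured, 3 were lower in the apex, 4 were higher and 5 passed in neither direction, with a median of 0.06, beside 21.6% lower and 17.6% higher of all genes. *Kitl*, which encodes the ligand of Kit, was higher in the apex by 0.23 against the base (SE 0.0611, adjusted p = 0.011) and by 0.28 against the middle turn (adjusted p = 0.016), with mean signals of 242, 198 and 205 from apex to base. *Edn1*, an endothelin, was lower in the apex (-0.92, SE 0.124, adjusted p = 2.0e-04), with 128, 192 and 242. For *Edn3*, the endothelin known for melanocyte development, 1 of 5 probes was well above background on all arrays and the difference was 0.25 (SE 0.288, adjusted p = 0.57). *Ednra*, the other endothelin receptor, was higher in the apex (0.81, SE 0.113, adjusted p = 2.5e-04). Among the transcription factors, *Pax3* was lower (-0.65, SE 0.118, adjusted p = 0.0012) and *Lef1* higher (0.42, SE 0.0542, adjusted p = 1.6e-04). The remaining calls, named after their values were seen, were *Snai2* (0.67, adjusted p = 0.0052) and the hepatocyte growth factor receptor gene *Met* (-0.38, adjusted p = 0.0063).

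**Figure D5:**
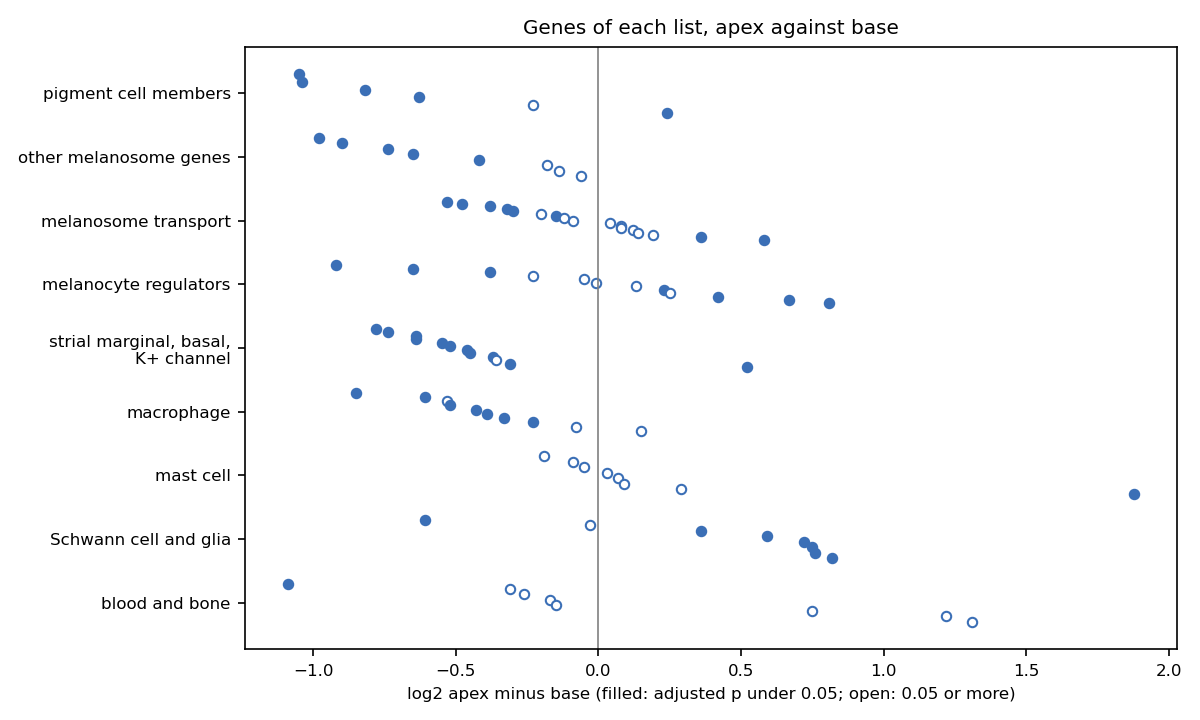
Log2 apex minus base of each gene of the lists, 1 point per gene; filled points have an adjusted p under 0.05. Among other melanosome genes 5 of 8 are lower in the apex, and among strial marginal, basal and potassium channel genes 10 of 12. Among Schwann cell and glia genes 6 of 8 are higher. Of all genes tested, 21.6% are lower in the apex and 17.6% higher.

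Other strial genes and markers of other cells were read beside the members. Of 12 genes of strial marginal and basal cells and of strial ion transport, 10 were lower in the apex and 1 was higher. The other passed in neither direction, and the median was -0.49. Of all genes, 21.6% were lower and 17.6% higher, with a median of -0.04. Between apex and middle, 8 of the 12 were lower and 1 was higher (7.61% and 4.42% of all genes). Between middle and base, 2 were lower in the middle turn and 1 was higher (9.23% and 11.6% of all genes). The summed signal of the 12 genes was 42366 to 46648 in apical samples, 50486 to 59176 in middle samples and 63160 to 71010 in basal samples. Most of it was *Kcnj10* and *Slc12a2*. The sum is thus not a measure of marginal and basal cells alone. *Kcnj10*, the intermediate cell channel named above, was read by a single probe and is also expressed by glia and supporting cells. It fell by 0.78 (SE 0.0761, adjusted p = 2.5e-05), with means of 18100, 22600 and 31000 and no overlap between any of the turns. *Slc12a2*, the basolateral cotransporter of marginal cells, fell by 0.52 (adjusted p = 8.9e-05), and the tight junction gene *Tjp1* was higher (0.52, adjusted p = 3.1e-05). None of the 12 was at background on all its probes. The part of the other strial cells in the member differences was not tested.

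Macrophage markers were read because strial macrophages lie beside intermediate cells and can carry melanin and *Gpnmb*. Of 10 markers, 7 were lower in the apex, 0 were higher and 3 passed in neither direction, with a median of -0.41. Of all genes, 21.6% were lower in the apex than in the base and 17.6% higher. *Ctss* fell by 0.85 (adjusted p = 5.6e-04), *C1qa* by 0.61 (adjusted p = 0.0011), *Cd68* by 0.33 (adjusted p = 0.01) and *Emr1*, now named Adgre1, by 0.39 (adjusted p = 0.014). The summed signal of the list was 5821 to 9108 in apical samples, 6207 to 7814 in middle samples and 8910 to 11552 in basal samples. Between apex and middle no macrophage marker passed in either direction, where 7.61% of all genes were lower in the apex and 4.42% higher. Their median was -0.02, and that of all genes was -0.07. Between middle and base, 6 of the 10 markers were lower in the middle turn and 0 were higher, with a median of -0.37. Of all genes, 9.23% were lower and 11.6% higher at that step, with a median of 0.04. The part of macrophages in the differences between any of the turns, those of *Gpnmb* among them, was not tested.

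Mast cells also carry Kit. Of 8 mast cell markers, none was lower in the apex, 1 was higher and 7 passed in neither direction. For the proteases *Cpa3* and *Mcpt4*, no probe was well above background on every array. The other 6 markers were each measured by such probes. Among them were *Tpsb2* (2 of 4 probes, mean signals of 108, 124 and 111 from apex to base), *Tpsab1* (2 of 5 probes) and *Cma1* (1 of 5). The summed signal was 273 to 334 in the apex and 231 to 261 in the base. The gene that was higher in the apex was *Hdc* (1.88, SE 0.151, adjusted p = 6.6e-06), which makes histamine, with means of 87.8, 58.8 and 24 from apex to base. The difference in the summed signal rests largely on *Hdc*, so the sum is not a measure of mast cells. *Tpsab1* gave -0.09 (adjusted p = 0.3) and *Ms4a2* -0.19 (adjusted p = 0.28).

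Of 8 markers of Schwann cells and other glia, which can express *Ednrb*, 6 were higher in the apex and 1 was lower, with a median of 0.66. *Mag* (0.75, adjusted p = 0.0024), *Prx* (0.72, adjusted p = 0.0031) and *Mbp* (0.36, adjusted p = 0.0019), all genes of myelin, were higher, and *S100b* fell by 0.61 (adjusted p = 1.6e-04). Between apex and middle 0 of the 8 markers were higher and 1 was lower. Between middle and base 6 were higher in the middle turn and 1 was lower, with a median of 0.76. Of all genes, 11.6% were higher and 9.23% lower at that step. The summed signal, most of it *S100b*, was 219334 to 251158 in the apex and 332741 to 361155 in the base. Of 8 blood and bone markers, 1 was lower in the apex, the osteocyte gene *Dmp1* (-1.09, adjusted p = 1.9e-04), and the others passed in neither direction, with *Ibsp* at 1.31 (adjusted p = 0.29), *Mpo* at 1.22 (adjusted p = 0.077) and *Elane* at 0.75 (adjusted p = 0.16). Their summed signal was 22719 to 64375 in apical samples, 42332 to 72948 in middle samples and 30559 to 77916 in basal samples. Without apex replicate 4, 9 of the 10 members were lower in the apex, *Tyrp1*, with 7 of 9 probes at background, being the ninth. *Tyrp1* also passed without middle replicate 1 (limma, adjusted p = 0.047), middle replicate 4 (0.023) or base replicate 2 (0.027), so this was not particular to apex replicate 4. The part of nerve, blood and bone in these differences was not tested.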

How the data were processed

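Per the labels, 25 ng of total RNA per sample was labeled with cyanine 3 and hybridized to 12 arrays, 4 for each turn. The deposited values are spot intensities that the authors made with Agilent Feature Extraction 10.7.3.1: the processed signal is background subtracted and detrended within the array, with no scaling between arrays, and spots without signal carry a small positive value. Probe positions are on mm9. The deposited value table holds the same intensities (largest difference 0%). The deposited yes or no marks of the authors' software (other columns) gave the spots that were uneven or outliers and those well above background.

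In R 4.3.3 (data.table package, version 1.17.8), control spots and 119 flagged probes were left out. Arrays were scaled to a common 75th percentile (640.8), and log2 signals were averaged over spots of a probe and probes of a gene name, giving 165865 probes and 19505 genes. All 10 members were measured, with no filter on low signal and no pseudocount. Turns were compared with limma 3.58.1 (lmFit, then eBayes) fitted to the 12 arrays together; p-values were Benjamini-Hochberg adjusted over all features, at a threshold of 0.05, and probes also relative to the mean of the other probes of genes with 3 or more. The scripts were tested on simulated data. The number of arrays limits the precision.

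The members and lists were chosen with earlier results of these data known. Named were all members, of each list at most the 4 genes with the smallest adjusted p for apex against base and those with a stated role (*Pmel*, *Kitl*, *Edn3* and *Kcnj10*; *Sox10* is not analysed here), the 8 genes most like the pigment mean, and probes past the relative test. Of the listed genes, 8 are not analysed here. A listed gene that the rule names is not reported here. Alternatives were quantile, median and spike-in scaling, normexp (offset 50), the value table, other probe summaries, filters on dim or flagged probes, 16 added to each signal, the 2 turns alone, a replicate block, limma's trend and robust options, the methods' one-way test and each array left out. The sample numbers were not taken to pair the turns. The main fit thus held no term for the mouse, although the design names 4 mice for 12 arrays.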

Additional observations from a re-analysis of the deposited data

Results flagged for a closer look

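In 2 of 30 groups of 4 samples (10 genes in 3 turns), the outermost sample stood far from the other three by Dixon's test, and chance gives about 1 in 20. For *Mlana* in the apex, replicate 1 (1959) lay below the others (2452 to 2502), with a gap of 0.918 of the log2 range. For *Oca2* in the middle turn, replicate 3 (24.7) lay below the others (29.2 to 30), with a gap of 0.859 of the range.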

How the results depend on the processing

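For *Tyr*, *Mlana*, *Mitf*, *Kit*, *Ednrb*, *Slc45a2* and *Gpnmb*, the direction and the call of apex against base were the same in all 26 alternatives each, with *Kit* between -1.66 and -0.92 and *Mitf* between -0.94 and -0.41. The *Dct* call was lost in 5 of 26, quantile normalization (-0.37) among them, and the *Oca2* call was lost or reversed in 16 of 26. The spike-in scaling moved the median of all genes for apex minus base to -0.52 and that of the members to -1.24. The cause of the changes below was not tested.

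The count of members higher in apex than base, 1, was 0 with quantile normalization, median scaling, spike-in scaling, normexp, the log2 of the mean linear signal, probes well above background in a turn or on all arrays (the latter chosen after seeing the data), 16 added to each signal, and limma's trend and robust options. The count lower in the apex than in the middle turn, 4, was 8 with median scaling, 9 with spike-in scaling and 2 with the median of probes. The F test count with a 2-fold difference, 3, was 1 with quantile normalization or normexp and 7 with spike-in scaling, and 3 with the methods' one-way test with or without adjustment. Member probes higher in the apex, 5, were 2 with quantile normalization or with the filter on dim probes. With quantile normalization, 1 transport gene was higher in the apex and 1 mast cell gene lower. Of the 8 genes most like the pigment mean, 2 were shared with quantile normalization, 1 with normexp and 5 with 16 added.

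Apex minus base changed sign for *Oca2* with spike-in scaling (-0.25) and the log2 of the mean (-0.09), and for *Tyrp1* with both filters on dim probes (0.06). For apex minus middle, *Oca2* changed with spike-in scaling (-0.13), normexp (-0.05) and the log2 of the mean (-0.01), and *Tyrp1* with both filters (0.00). For middle minus base, the sign changed for *Tyrp1* (quantile -0.07, spike-in -0.13), *Oca2* (quantile -0.02, spike-in -0.12, log2 of the mean -0.07), *Ednrb* (median of probes 0.05) and *Dct* (median scaling -0.03, spike-in -0.23, and -0.03, -0.09, -0.08 and -0.01 without middle replicate 3, middle replicate 4, base replicate 1 and base replicate 3; leaving out each array gave -0.09 to 0.18).

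Leaving out each array gave 7 to 9 members lower in apex than base and 0 to 1 higher, 2 to 7 lower in the apex than in the middle turn, 1 to 5 lower in middle than base, 1 to 3 past the F test with 2-fold, 69 to 78 probes lower and 4 to 5 higher, and 3 to 8 past the relative test. Of the 8 most alike genes 1 to 6 were shared. The lists kept within 1.5 times their counts, apart from blood and bone genes higher in the apex (0 to 1).

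With the sample number as a replicate block, members lower in the apex than in the middle turn rose from 4 to 7 (*Tyr*, *Mlana* and *Slc45a2* joined, adjusted p = 0.025, 0.012 and 0.011), *Tyrp1* passed for apex against base (adjusted p = 0.027), *Mitf* lost its call for middle against base (adjusted p = 0.064), and no other count moved by over 1.5 times. The numbers were not shown to pair the samples: same-numbered samples correlated in their deviations at -0.0367 to 0.227, over 0.1 in 6 of 12 pairs, and 8 of 12 samples correlated best with a sample of their own number, a hint from the data and not from the design.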
